A study of Mus musculus with 24 samples.

Results

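Visceral fat of female mice with 2 different regulatory T cell knockouts was compared directly, without control animals. The comparison took 8 of the 24 bulk RNA-seq libraries of the series. Its members were the 4 libraries labelled TbetFoxp3cre, female, and the 4 labelled PpargFoxp3cre, female, and the 4 Foxp3cre control females did not enter it. The tissue was visceral/perigonadal adipose tissue of mice aged 27 to 33 weeks. In both genotypes the label ends in Foxp3cre, and the source names call both conditional knockouts: Cre recombinase made under Foxp3, the lineage gene of regulatory T cells, was aimed at Tbx21, which encodes T-bet, in TbetFoxp3cre mice and at Pparg in PpargFoxp3cre mice. T-bet is the transcription factor of type 1 lymphocytes, and PPARγ, the product of Pparg, is a lipid-sensing nuclear receptor that regulatory T cells of visceral fat use as well as adipocytes. RNA came from the whole tissue and not from sorted cells, and regulatory T cells are a minor cell type of fat. In such bulk RNA, fewer cells of a type and less RNA per cell cannot be told apart. The labels mark 2 batches with 2 libraries of each genotype in each, and do not say what the batches were. Replicates 1 and 3 are of batch 1 and replicates 2 and 4 of batch 2. The labels do not state that each library is 1 animal; the p-values below rest on the variation among libraries, which may be technical.

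Fat cells make fatty acids from sugar by de novo lipogenesis. Citrate leaves the mitochondrion and is split into acetyl-CoA, which is carboxylated and built into palmitate, then elongated and desaturated, with NADPH from the pentose phosphate pathway and malic enzyme as the reductant. The genes of this pathway are switched on with feeding by the transcription factors SREBP1 and ChREBP, while SREBP2 drives those of cholesterol synthesis and uptake, and INSIG1 holds the SREBPs back in the endoplasmic reticulum.

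TbetFoxp3cre libraries held 8345575 to 25882749 counts and PpargFoxp3cre libraries 13371068 to 31022845, and the 2 shallowest were TbetFoxp3cre replicates 2 and 4. Batch was the widest split of the 8 libraries: the first principal component of log2 CPM took 45.2% of the variance and separated the batches, and 5656 genes (35%) were called between batches. Levels below are CPM, that is, counts scaled by TMM-adjusted library totals, and values by library run from replicate 1 to 4. The female label held in every library: Xist, the RNA that coats the inactive X chromosome, was at 614 to 1056 CPM in TbetFoxp3cre and 610 to 783 CPM in PpargFoxp3cre females, and none of 4 Y-linked genes exceeded 12 counts summed over a group. The adipocyte hormone gene Adipoq, a tissue check outside the rule on named genes, was at 2920 to 4005 CPM in TbetFoxp3cre and 1814 to 4112 CPM in PpargFoxp3cre females. Every library thus held adipose tissue, and this gene does not check which depot it came from.

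The targeted genes did not separate the genotypes in whole fat. Pparg was at 154, 224, 163 and 246 CPM in TbetFoxp3cre females, against 132, 249, 279 and 236 CPM in PpargFoxp3cre females, with a log2 fold change (TbetFoxp3cre over PpargFoxp3cre, as everywhere below) of −0.21 (SE 0.21, edgeR adjusted p = 0.942). Tbx21 was at 2.7, 1.2, 0.68 and 0.94 CPM in TbetFoxp3cre females, against 1.28, 0.078, 0.50 and 2.74 CPM in PpargFoxp3cre females (log2 fold change 0.29, SE 0.91, edgeR adjusted p = 0.995). Foxp3 was at 0.31 to 0.94 CPM in TbetFoxp3cre and 0.071 to 1.3 CPM in PpargFoxp3cre females (log2 fold change 0.37, SE 0.73, edgeR adjusted p = 0.976). The groups overlapped for all 3 genes. Cells outside the Foxp3 lineage make both Pparg and Tbx21 RNA, and whole-tissue levels therefore do not check the genotype labels.

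Across 16165 genes tested, edgeR's quasi-likelihood test with batch as a covariate called 0 genes at an adjusted p under 0.05 (0%). The smallest adjusted p was 0.097, for Slc2a5. At an unadjusted p under 0.05 there were 393 higher genes (2.43%) and 572 lower genes (3.54%), or 5.97% in either direction. DESeq2 on the same libraries called 40 genes higher (0.257% of the 15538 genes it gave an adjusted p) and 81 lower (0.521%). All 121 had the same direction in edgeR, which was fitted to the same counts and design and is no separate check. Of the other tools, limma with voom weights called 0 genes, and limma on the authors' deposited log2 FPKM values called 3: Elovl6 and Slc2a5 lower and Snord104, named after its values were seen, higher. The CPM ranges of the 2 genotypes did not overlap for 114 genes that were higher (0.705%) and 173 that were lower (1.07%) in TbetFoxp3cre females. The median log2 fold change of all genes was −0.003. Because edgeR called no gene, the differences below are given as levels and estimates, with the tool named wherever a gene was called.

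**Figure D1:**
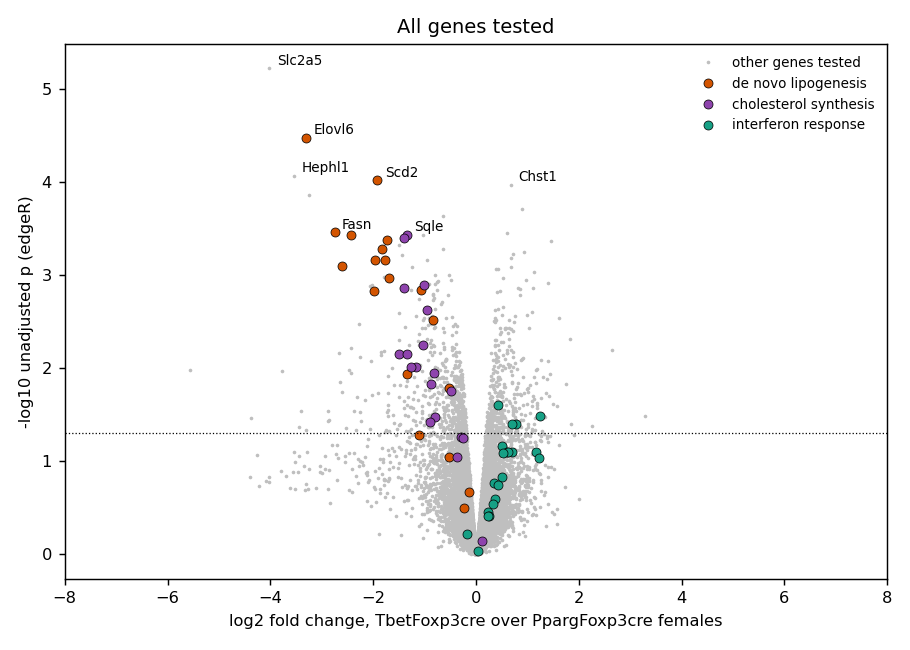
Each point is 1 of the 16165 genes tested. The x axis is the log2 fold change of TbetFoxp3cre over PpargFoxp3cre females and the y axis −log10 of edgeR's unadjusted p, with a dotted line at the 0.05 level. De novo lipogenesis genes and most cholesterol synthesis genes lie on the lower side, and most interferon response genes on the higher side.

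Genes that build fatty acids were lower in TbetFoxp3cre fat. All 19 members of the de novo lipogenesis list had negative log2 fold changes, from −3.30 to −0.14, with a median of −1.74, where 50.7% of all genes were negative. Of the 19, 15 were lower and 0 higher at an unadjusted p under 0.05 in edgeR (all genes: 3.54% lower). DESeq2 called 14 lower (all genes: 0.521%). For 13 of the 19, every TbetFoxp3cre library was below every PpargFoxp3cre library (all genes: 1.07%). Summed over the list, TbetFoxp3cre females held 8360, 9077, 7787 and 12250 CPM, against 22490, 27750, 52560 and 34370 CPM in PpargFoxp3cre females. PpargFoxp3cre replicate 3 stood highest of the 8 libraries; without it the list's median was −1.41, and it lay between −1.90 and −1.60 without any other library. Fitted by batch, the median came to −2.09 for the batch 1 libraries and −1.07 for those of batch 2.

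The pathway's first enzymes supply acetyl-CoA. Acly, which splits citrate in the cytosol, was at 228, 316, 242 and 611 CPM in TbetFoxp3cre females, against 1598, 1325, 3978 and 1591 CPM in PpargFoxp3cre females. The groups did not overlap, the log2 fold change was −2.61 (SE 0.50, edgeR adjusted p = 0.421), and DESeq2 called the gene (adjusted p = 0.000677). Acss2, which makes acetyl-CoA from acetate, was at 76.2, 76.7, 68.8 and 89.4 CPM in TbetFoxp3cre females, against 458, 231, 973 and 260 CPM in PpargFoxp3cre females (log2 fold change −2.44, SE 0.41). The spread was narrow in TbetFoxp3cre fat and wide in PpargFoxp3cre fat, where both batch 1 libraries were above both batch 2 libraries. Slc25a1, the carrier that exports citrate from mitochondria, was at 166 to 207 CPM in TbetFoxp3cre females, against 328 to 1449 CPM in PpargFoxp3cre females (log2 fold change −1.70, SE 0.35).

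Acaca and Fasn encode the enzymes that build the chain, acetyl-CoA carboxylase and fatty acid synthase. Acaca was at 147, 219, 193 and 295 CPM in TbetFoxp3cre females, against 849, 576, 1683 and 508 CPM in PpargFoxp3cre females (log2 fold change −1.99, SE 0.42). Fasn, on chromosome 11 at 120805958 to 120825166, was at 468, 1504, 540 and 2443 CPM in TbetFoxp3cre females, against 3453, 6911, 9164 and 7338 CPM in PpargFoxp3cre females. Neither gene's groups overlapped. For Fasn the mean was 1239 ± 931 CPM in TbetFoxp3cre and 6717 ± 2385 CPM in PpargFoxp3cre females (SD, n = 4 each), a log2 fold change of −2.75 (SE 0.48, edgeR adjusted p = 0.421; DESeq2 adjusted p = 5.31e-09). The batches gave estimates of −3.64 (batch 1) and −1.85 (batch 2), and within TbetFoxp3cre fat both batch 2 libraries were above both batch 1 libraries.

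Elovl6, the elongase that takes palmitate to stearate, had the smallest p of the list. It lies on chromosome 3 at 129532386 to 129638495 and was at 27.1, 27.5, 28.9 and 38.2 CPM in TbetFoxp3cre females, against 252, 223, 621 and 184 CPM in PpargFoxp3cre females. Means were 30.4 ± 5.26 CPM in TbetFoxp3cre and 320 ± 202 CPM in PpargFoxp3cre females (SD, n = 4 each), which is 9.88-fold lower in TbetFoxp3cre fat by the fitted log2 fold change of −3.30 (SE 0.39, edgeR adjusted p = 0.269; DESeq2 adjusted p = 9.87e-19). The lowest PpargFoxp3cre library was far above the highest TbetFoxp3cre library. Elovl6 was called by edgeR without PpargFoxp3cre replicate 3 (adjusted p = 0.00446) and in each batch alone, with log2 fold changes of −3.96 in batch 1 (adjusted p = 0.046) and −2.62 in batch 2 (adjusted p = 0.0496); Acss2 was the other list member called by edgeR in each batch alone.

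The desaturases Scd1 and Scd2 put the first double bond into stearate. Scd1 was at 4232, 4045, 3479 and 5329 CPM in TbetFoxp3cre females, against 7388, 12530, 18700 and 18270 CPM in PpargFoxp3cre females (log2 fold change −1.74, SE 0.32). Scd2 was at 224, 120, 148 and 198 CPM in TbetFoxp3cre females, against 505, 452, 984 and 677 CPM in PpargFoxp3cre females (log2 fold change −1.92, SE 0.28). No TbetFoxp3cre library reached a PpargFoxp3cre one for either gene, and both estimates were nearly equal in the batches: −1.76 and −1.71 for Scd1, and −2.00 and −1.83 for Scd2, in batch 1 and batch 2 alone.

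Genes of reductant supply had lower values as well. Me1, the cytosolic malic enzyme that makes NADPH, was at 331, 231, 322 and 291 CPM in TbetFoxp3cre females, against 1103, 551, 2480 and 645 CPM in PpargFoxp3cre females (log2 fold change −1.83, SE 0.34). Tkt, the transketolase of the pentose phosphate pathway, was at 452 to 729 CPM in TbetFoxp3cre and 1358 to 4366 CPM in PpargFoxp3cre females (log2 fold change −1.96, SE 0.38). Neither pair of ranges overlapped, but the pathway's entry enzyme G6pdx had a log2 fold change of −0.22 (SE 0.21, unadjusted p = 0.32) with overlapping groups. Thrsp, a small protein that accompanies lipogenesis, was at 432 to 645 CPM in TbetFoxp3cre and 1145 to 4389 CPM in PpargFoxp3cre females, with a log2 fold change of −1.78 (SE 0.35). Pnpla3, a lipid droplet acyltransferase and lipase that follows carbohydrate feeding, was at 316 to 418 CPM in TbetFoxp3cre and 579 to 1127 CPM in PpargFoxp3cre females (log2 fold change −1.06, SE 0.23). The members with the smallest differences were Elovl5 (−0.14), G6pdx (−0.22), Fads1 (−0.52) and Fads2 (−0.53), that is, the enzymes of polyunsaturated fatty acids and the entry to the pentose phosphate pathway. Acly, Acaca, Slc25a1, Pnpla3 and the 4 genes of the last sentence are named after their values were seen.

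**Figure D2:**
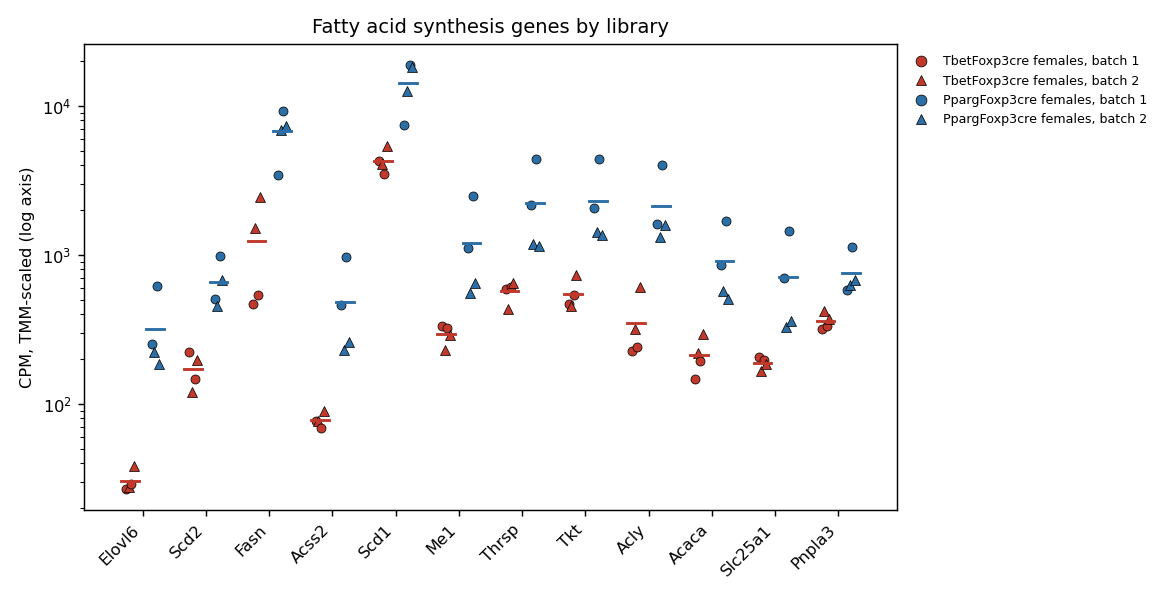
CPM of 12 fatty acid synthesis genes in each of the 8 libraries, on a log axis. Red points are TbetFoxp3cre females and blue points PpargFoxp3cre females, circles are batch 1, triangles batch 2, and bars are group means. For each gene every red point lies below every blue point, and PpargFoxp3cre replicate 3, of batch 1, is the highest blue point for all 12 genes.

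Promoter windows of 4 members are shown because their genes had the lowest TbetFoxp3cre levels relative to PpargFoxp3cre in fatty acid synthesis (Elovl6, Fasn) or were among the lower sterol genes (Nsdhl, Insig1). Each is 300 bases of GRCm38.p6 from RefSeq, 250 before and 50 after a start annotated there, on the gene's strand; for Fasn that start lies inside the gene's outermost span given above. Capitals mark CCAAT, the element bound by NF-Y, a partner of the SREBPs, or its reverse complement, and CACGTG, an E-box that SREBP1, ChREBP and USF factors can bind.
Elovl6, chr3:129532136-129532435, plus strand: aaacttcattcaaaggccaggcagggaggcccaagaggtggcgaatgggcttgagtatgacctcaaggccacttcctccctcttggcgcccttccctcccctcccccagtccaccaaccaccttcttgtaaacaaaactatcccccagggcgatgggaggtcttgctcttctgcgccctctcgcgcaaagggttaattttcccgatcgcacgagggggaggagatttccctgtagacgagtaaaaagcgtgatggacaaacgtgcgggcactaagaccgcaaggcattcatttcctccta
Fasn, chr11:120824498-120824797, minus strand: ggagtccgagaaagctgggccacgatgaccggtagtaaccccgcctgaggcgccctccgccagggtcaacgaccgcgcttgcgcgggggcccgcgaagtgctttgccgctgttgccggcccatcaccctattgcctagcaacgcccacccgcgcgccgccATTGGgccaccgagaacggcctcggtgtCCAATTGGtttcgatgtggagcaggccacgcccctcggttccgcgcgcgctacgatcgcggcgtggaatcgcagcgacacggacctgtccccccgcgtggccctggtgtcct
Nsdhl, chrX:72918271-72918570, plus strand: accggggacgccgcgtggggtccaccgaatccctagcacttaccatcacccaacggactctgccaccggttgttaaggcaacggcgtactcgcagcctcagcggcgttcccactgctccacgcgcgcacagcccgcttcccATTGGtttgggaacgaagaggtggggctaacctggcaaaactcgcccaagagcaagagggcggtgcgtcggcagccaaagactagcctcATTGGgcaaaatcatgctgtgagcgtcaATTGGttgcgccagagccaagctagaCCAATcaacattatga
Insig1, chr5:28071162-28071461, plus strand: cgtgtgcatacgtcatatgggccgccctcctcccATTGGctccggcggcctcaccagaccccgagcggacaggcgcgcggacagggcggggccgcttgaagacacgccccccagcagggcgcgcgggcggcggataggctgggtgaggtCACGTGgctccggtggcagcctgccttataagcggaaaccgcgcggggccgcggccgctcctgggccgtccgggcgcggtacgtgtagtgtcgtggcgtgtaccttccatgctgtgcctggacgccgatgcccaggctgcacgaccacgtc
The Fasn window held 3 CCAAT matches, of which 2 overlap in opposite orientations, the Nsdhl window 4, and the Insig1 window 1 CCAAT and 1 CACGTG. The Elovl6 window held none of the motifs searched, which says only that these letters are not in this window. CCAAT, on either strand, was in the windows of 10 of 16 de novo lipogenesis genes and 13 of 13 cholesterol synthesis genes that matched the table, against 41.1% of the 27025 genes with a window. CACGTG was in 2 of 16 and 3 of 13 (8.09% of all genes), and the sterol element TCACNCCAC, also on either strand, in 0 of 16 and 1 of 13 (1.44% of all genes). A match is a description and no evidence of binding in these samples.

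Cholesterol synthesis genes were lower too, with smaller differences. Of 20 genes in the list 19 were tested, 18 had negative log2 fold changes, and the median was −0.96. At an unadjusted p under 0.05, 15 were lower and 0 higher in edgeR (all genes: 3.54% lower); DESeq2 called 9 lower (all genes: 0.521%), and 8 had groups that did not overlap (all genes: 1.07%). Summed over the list, TbetFoxp3cre females held 608, 805, 717 and 600 CPM, against 857, 880, 1740 and 1022 CPM in PpargFoxp3cre females. The groups did not overlap, and PpargFoxp3cre replicate 3 was again the highest library. Leaving that library out gave a median of −0.69, and the batches alone gave −1.28 (batch 1) and −0.56 (batch 2).

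Along the pathway the difference was present from mevalonate to the sterol rings. Fdps, which makes farnesyl pyrophosphate, was at 13.3, 10.5, 16 and 13.3 CPM in TbetFoxp3cre females, against 38.2, 20.3, 66.4 and 25 CPM in PpargFoxp3cre females (log2 fold change −1.40, SE 0.25, edgeR adjusted p = 0.421; DESeq2 adjusted p = 0.000124). Sqle, the squalene epoxidase that commits carbon to sterols, was at 11.5, 12.5, 14 and 15.3 CPM in TbetFoxp3cre females, against 28.7, 26, 54.2 and 28.2 CPM in PpargFoxp3cre females (log2 fold change −1.35, SE 0.24; DESeq2 adjusted p = 0.000126). Neither gene's groups overlapped. Nsdhl, a later demethylation enzyme of the sterol ring, was at 27.7, 29, 30.5 and 33.1 CPM in TbetFoxp3cre females, against 73.7, 46.8, 146 and 65.3 CPM in PpargFoxp3cre females (log2 fold change −1.40, SE 0.29). Lss, which closes the ring to lanosterol, was at 9.25 to 24 CPM in TbetFoxp3cre and 30.7 to 76.4 CPM in PpargFoxp3cre females (log2 fold change −1.499, SE 0.41). Pmvk (−1.02), Mvd (−1.33) and Dhcr7 (−0.96), enzymes of mevalonate use and of the last sterol step, had overlapping groups, and Hsd17b7 (−1.02) did not. Hmgcs1, which makes HMG-CoA at the pathway's entry and is named after its values were seen, had a log2 fold change of 0.11 (unadjusted p = 0.71).

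Among the regulators of both pathways, Insig1 stood apart. It was at 133, 95.4, 103 and 71.9 CPM in TbetFoxp3cre females, against 227, 185, 541 and 223 CPM in PpargFoxp3cre females, with no overlap (log2 fold change −1.495, SE 0.27, edgeR adjusted p = 0.421; DESeq2 adjusted p = 2.52e-05). Insig1 is itself a target of the SREBPs. Srebf2, the gene of SREBP2, was at 50.8 to 59.6 CPM in TbetFoxp3cre and 56.6 to 79.8 CPM in PpargFoxp3cre females (log2 fold change −0.38, SE 0.11, unadjusted p = 0.0083). Srebf1, the gene of SREBP1, was at 154, 418, 148 and 251 CPM in TbetFoxp3cre females, against 330, 353, 750 and 330 CPM in PpargFoxp3cre females (log2 fold change −0.93, SE 0.44, unadjusted p = 0.066). The groups overlapped because TbetFoxp3cre replicate 2 was above 3 of the PpargFoxp3cre libraries, and the batches gave −1.83 (batch 1) and −0.03 (batch 2). Mlxipl, the gene of ChREBP, named after its values were seen, had a log2 fold change of −0.76 (unadjusted p = 0.12), and its partner Mlx one of −0.47 (SE 0.23, unadjusted p = 0.067). Of the 11 regulators 2 were lower and 0 higher at an unadjusted p under 0.05 (all genes: 3.54% lower), with a median of −0.11. DESeq2 called 1 of them, Insig1 (all genes: 0.521% lower). The transcripts of the liver X receptors (Nr1h3 0.22, Nr1h2 0.04) and of USF1 and USF2 (0.06 and 0.12), also named after their values were seen, had overlapping groups.

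Some genes of triglyceride assembly had lower values. Of 11 list members 4 were lower and 0 higher at an unadjusted p under 0.05 (all genes: 3.54% lower). DESeq2 called 3 lower (all genes: 0.521%), and the median was −0.29. Gpd1, which makes glycerol phosphate, was at 744, 709, 729 and 891 CPM in TbetFoxp3cre females, against 876, 1740, 2116 and 1574 CPM in PpargFoxp3cre females (log2 fold change −1.04, SE 0.26; DESeq2 adjusted p = 0.00671). Dgat2, the acyltransferase that completes the triglyceride, was at 1178 to 1949 CPM in TbetFoxp3cre and 1906 to 5335 CPM in PpargFoxp3cre females (log2 fold change −1.05, SE 0.27; DESeq2 adjusted p = 0.00686). Both genes' groups overlapped by 1 library. Mogat2, a monoacylglycerol acyltransferase, had a log2 fold change of −1.86 (SE 0.50; DESeq2 adjusted p = 0.00468), and Agpat2 one of −0.98 (SE 0.39), with 184 to 279 CPM in TbetFoxp3cre and 293 to 923 CPM in PpargFoxp3cre females. The other 7 members, Dgat1 among them (0.03, named after its value was seen), had unadjusted p values from 0.23 to 0.86. The list's median was −0.05 without PpargFoxp3cre replicate 3, −0.94 in batch 1 alone and −0.04 in batch 2 alone.

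Sugar handling showed differences in both directions. Slc2a5, the fructose transporter GLUT5, had the smallest p of all genes: it lies on chromosome 4 at 150119344 to 150144168 and was at 1.69, 0.72, 1.43 and 0.63 CPM in TbetFoxp3cre females, against 16.3, 10.7, 43.9 and 5.61 CPM in PpargFoxp3cre females. The groups did not overlap, and the log2 fold change was −4.02 (SE 0.41, edgeR adjusted p = 0.097; DESeq2 adjusted p = 2.98e-17), with −4.27 in batch 1 and −3.58 in batch 2 alone. edgeR called it without PpargFoxp3cre replicate 3 (adjusted p = 0.0417), without PpargFoxp3cre replicate 4 (adjusted p = 0.0426) and without the filter on low counts. Slc2a4, the insulin-responsive glucose transporter GLUT4, was at 186 to 212 CPM in TbetFoxp3cre and 224 to 445 CPM in PpargFoxp3cre females, with no overlap (log2 fold change −0.53, SE 0.21, edgeR adjusted p = 0.808). Of 16 insulin signalling and glucose uptake genes, 4 were lower and 1 higher at an unadjusted p under 0.05 in edgeR (all genes: 3.54% lower, 2.43% higher). The list's median was −0.06. DESeq2 called 2 of the 16 lower, both glycogen genes (all genes: 0.521%), and 1 higher, Pck1 (all genes: 0.257%). Ppp1r3c, a glycogen-targeting phosphatase subunit, was at 18.5 to 36.8 CPM in TbetFoxp3cre and 32.6 to 58.1 CPM in PpargFoxp3cre females (log2 fold change −0.85, SE 0.20; DESeq2 adjusted p = 0.0275). Gys2, a glycogen synthase, was at 5.33 to 17.1 CPM in TbetFoxp3cre and 12 to 38.1 CPM in PpargFoxp3cre females (log2 fold change −1.64, SE 0.48; DESeq2 adjusted p = 0.0176). The related Ppp1r3b had a log2 fold change of −2.48 (SE 0.72) and was not called by either tool.

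Pck1, the key enzyme of glycerol production for fatty acid re-esterification in fat, went the other way. It was at 1039, 3768, 1054 and 2237 CPM in TbetFoxp3cre females, against 234, 1483, 305 and 1612 CPM in PpargFoxp3cre females. Within each batch every TbetFoxp3cre library was above every PpargFoxp3cre one, although the groups overlapped across batches, and the log2 fold change was 1.46 (SE 0.27, edgeR adjusted p = 0.421; DESeq2 adjusted p = 5.03e-06), with 1.96 in batch 1 and 0.96 in batch 2 alone. With the male knockout libraries in the fit as well, the female estimate was 1.225 (SE 0.61, edgeR unadjusted p = 0.066). Among lipid droplet genes, Plin4 (0.88, SE 0.26; DESeq2 adjusted p = 0.0275) and the droplet fusion gene Cidec (0.63, SE 0.24) had higher estimates, and the coat protein gene Plin2 a lower one (−0.70, SE 0.22). Of that list's 12 tested members 2 were higher and 2 lower at an unadjusted p under 0.05 (all genes: 2.43% higher, 3.54% lower). Fabp4, the abundant fatty acid carrier of adipocytes, was at 14790, 10630, 14620 and 10200 CPM in TbetFoxp3cre females, against 5024, 9565, 8406 and 9208 CPM in PpargFoxp3cre females, with no overlap (log2 fold change 0.64, SE 0.28, edgeR adjusted p = 0.831). The 14 mature adipocyte genes had a median of −0.01, with 2 higher and 1 lower at an unadjusted p under 0.05 (all genes: 2.43% higher, 3.54% lower). They summed to 37280 to 39790 CPM in TbetFoxp3cre females, against 22270, 38000, 36900 and 40250 CPM in PpargFoxp3cre females. PpargFoxp3cre replicate 1 was the lowest of the 8 libraries in this sum, as it was for Pck1, Plin4, Cidec and Fabp4. Its part in the higher estimates of these genes was not tested.

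**Figure D3:**
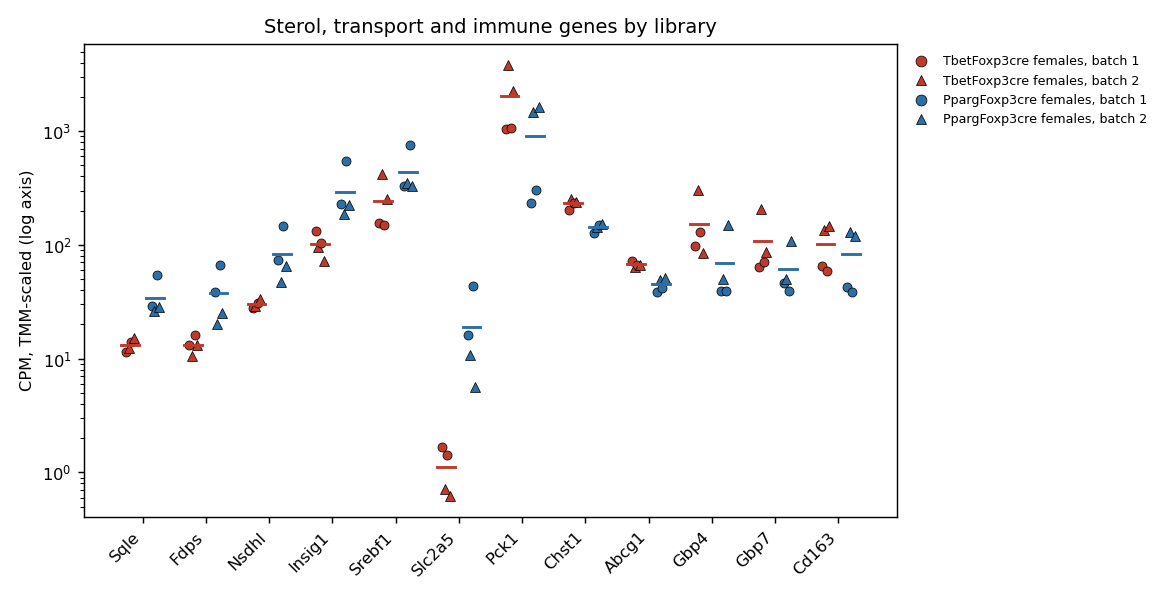
CPM of 12 sterol, sugar, lipid transport and immune genes in each library, on a log axis, with the same colours and symbols as the plot of fatty acid synthesis genes. Sqle, Fdps, Nsdhl, Insig1 and Slc2a5 are separated with TbetFoxp3cre below, Chst1 and Abcg1 with TbetFoxp3cre above, and for Pck1 and Cd163 the batches are farther apart than the genotypes.

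Outside the lists, the higher genes with the smallest p were of several kinds. Chst1, a sulfotransferase of keratan sulfate and related sugars, was at 201, 254, 233 and 238 CPM in TbetFoxp3cre females, against 128, 144, 150 and 151 CPM in PpargFoxp3cre females (log2 fold change 0.69, SE 0.10, edgeR adjusted p = 0.347; DESeq2 adjusted p = 4.12e-08). Abcg1, which exports cholesterol from cells and is a liver X receptor target, was at 72.1, 63.9, 66.9 and 67.2 CPM in TbetFoxp3cre females, against 38.3, 49, 41.6 and 50.7 CPM in PpargFoxp3cre females (log2 fold change 0.60, SE 0.11; DESeq2 adjusted p = 0.000764). Rbp7, a retinol-binding protein gene of fat endothelium and adipocytes, was at 25 to 38.7 CPM in TbetFoxp3cre and 15.8 to 19.1 CPM in PpargFoxp3cre females (log2 fold change 0.90, SE 0.15). For these 3 genes and for the matrix protein gene Thbs2 (0.69, SE 0.13) and Phyhd1 (0.38, SE 0.08), the groups did not overlap. Syne3 (0.73), the BMP antagonist gene Chrdl1 (0.69), the RNA-binding protein gene Taf15 (0.42) and Ctcfl (1.13), a paralogue of CTCF, overlapped across batches. DESeq2 called all 10 higher genes that the rule on named genes picked by edgeR's p, Pck1 included (all genes: 0.257% higher). Because they were picked by p from the same counts, these calls are no separate evidence. On the lower side, Hephl1, a ferroxidase related to ceruloplasmin, was at 0.52 to 1.77 CPM in TbetFoxp3cre and 4.5 to 26.7 CPM in PpargFoxp3cre females (log2 fold change −3.54, SE 0.50; DESeq2 adjusted p = 9.85e-10). Sbk1, a kinase gene (−1.03, SE 0.18), did not overlap, and Rassf3 (−0.65, SE 0.11) did.

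Thermogenic adipocyte genes had a median of −0.69 over 10 tested members of 12. At an unadjusted p under 0.05, 3 were lower (all genes: 3.54%), and 0 were called by either tool. The estimates rested on PpargFoxp3cre replicate 2. Ucp1, the uncoupling protein of brown and beige fat, was at 0.21, 3.61, 0.08 and 0.31 CPM in TbetFoxp3cre females, against 0, 120, 1.09 and 2.87 CPM in PpargFoxp3cre females. Cidea, a beige fat droplet gene, was at 1.86, 3.13, 1.74 and 1.15 CPM in TbetFoxp3cre females, against 1.28, 72.5, 9.59 and 5.14 CPM in PpargFoxp3cre females. Replicate 2 was the highest library of each group for Ucp1, and without PpargFoxp3cre replicate 2 the list's median was −0.19. Cpt1b (−1.71), the muscle-type fatty acid importer of mitochondria, and the potassium channel gene Kcnk3 (−0.52) had overlapping groups, as did all other tested members. The 22 oxidative phosphorylation genes had a median of −0.26, with 21 negative. At an unadjusted p under 0.05, 3 were lower (all genes: 3.54%), such as the complex I gene Ndufb5 (−0.32, SE 0.10).

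Genes tied to fat expansion had all 10 members positive, with a median of 0.19. Of these, 2 were higher at an unadjusted p under 0.05 (all genes: 2.43%). Nnat, an imprinted gene of the endoplasmic reticulum, was at 887, 1318, 1126 and 1625 CPM in TbetFoxp3cre females, against 198, 1041, 148 and 787 CPM in PpargFoxp3cre females (log2 fold change 1.61, SE 0.39, edgeR adjusted p = 0.549; DESeq2 adjusted p = 0.000795). Both batch 1 libraries of PpargFoxp3cre fat were the lowest, and the estimate was 2.54 in batch 1 and 0.69 in batch 2 alone. Peg3, another imprinted gene, had a log2 fold change of 1.16 (SE 0.35). By batch the list's median was 0.90 (batch 1) and −0.27 (batch 2), and it was 0.015 without PpargFoxp3cre replicate 1.

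Interferon response genes had 20 of 21 members positive, with a median of 0.50, 4 higher and 0 lower at an unadjusted p under 0.05 (all genes: 2.43% higher), and 0 called by DESeq2. Gbp4, an interferon-induced GTPase gene, was at 97.3, 302, 130 and 84.6 CPM in TbetFoxp3cre females, against 39, 49.7, 39.6 and 151 CPM in PpargFoxp3cre females (log2 fold change 1.24, SE 0.47, edgeR adjusted p = 0.803). TbetFoxp3cre replicate 2 and PpargFoxp3cre replicate 4 stood above the rest of their groups, and the same libraries were highest for Gbp5 (0.70, SE 0.29) and Gbp7 (0.77, SE 0.31). These Gbp genes are close relatives, between which counting may split reads. Irf1, a transcription factor gene of the interferon response, was at 103 to 155 CPM in TbetFoxp3cre and 75.2 to 123 CPM in PpargFoxp3cre females (log2 fold change 0.42, SE 0.16). The median was 0.60 in batch 1 and 0.31 in batch 2 alone, and 0.33 to 0.75 when each library was left out. All 11 MHC class I genes were positive (median 0.35), with medians of 0.64 (batch 1) and 0.02 (batch 2). All 17 type 1 and cytotoxic lymphocyte genes were positive too (median 0.26), but that median was 1.65 (batch 1) and −0.98 (batch 2), and −0.25 without PpargFoxp3cre replicate 3. No member of either list reached an unadjusted p under 0.05. Ifng, the gene of interferon gamma itself, was at 0.93, 2.52, 0.3 and 2.09 CPM in TbetFoxp3cre females, against 0, 0.78, 0.05 and 2.74 CPM in PpargFoxp3cre females (log2 fold change 1.40, SE 0.80, unadjusted p = 0.12).

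All 16 macrophage genes had positive estimates with a median of 0.22, and 2 were higher at an unadjusted p under 0.05 (all genes: 2.43%). Cd163, a scavenger receptor gene of resident macrophages, was at 65.6, 134, 58.8 and 147 CPM in TbetFoxp3cre females, against 42.9, 129, 38.9 and 119 CPM in PpargFoxp3cre females (log2 fold change 0.39, SE 0.11, edgeR adjusted p = 0.684). TbetFoxp3cre libraries were above PpargFoxp3cre ones within each batch, and the efferocytosis receptor gene Mertk had a like estimate (0.33, SE 0.10). By batch the list's median was 0.66 (batch 1) and −0.21 (batch 2), and it was −0.01 without TbetFoxp3cre replicate 1.

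T cell genes differed in opposite directions in the batches. Regulatory T cell genes (14 of 17 tested) had a median of 0.14, with 0.81 in batch 1 and −0.50 in batch 2 alone, and pan T cell genes one of 0.02, with 1.32 and −1.32. Tnfrsf18, which encodes GITR, had a log2 fold change of 0.62 (SE 0.27). It was the 1 of 14 members at an unadjusted p under 0.05 (all genes: 5.97% in either direction). Ikzf2 (−0.39), the gene of Helios, and Gata3 (−1.59), a lineage factor of type 2 cells and of epithelium, had overlapping groups. Pan T cell genes summed to 194, 94.2, 190 and 106 CPM in TbetFoxp3cre females, against 134, 91.8, 96.5 and 261 CPM in PpargFoxp3cre females, so PpargFoxp3cre replicate 4 was the highest library.

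B cell and plasma cell genes had a median of −0.58, with 14 of 16 negative and 2 lower at an unadjusted p under 0.05 (all genes: 3.54%). The median was −0.10 (batch 1) and −0.71 (batch 2), and it was −0.30 without PpargFoxp3cre replicate 4 and −0.35 without TbetFoxp3cre replicate 4. Ighm, the IgM heavy chain gene, was at 509, 697, 621 and 653 CPM in TbetFoxp3cre females, against 1302, 517, 2009 and 1328 CPM in PpargFoxp3cre females (log2 fold change −1.001, SE 0.35, edgeR adjusted p = 0.76), and PpargFoxp3cre replicate 2 lay within the TbetFoxp3cre range while the other 3 libraries of that group lay above it. Pou2af1, a coactivator of antibody genes, had a log2 fold change of −0.81 (SE 0.31). Cxcl13, the chemokine that draws B cells into lymphoid clusters, was at 5.75, 6.73, 3.36 and 8.98 CPM in TbetFoxp3cre females, against 9.2, 16.8, 8.89 and 27.6 CPM in PpargFoxp3cre females (log2 fold change −1.24, SE 0.25, edgeR adjusted p = 0.421; DESeq2 adjusted p = 0.00202). Its groups overlapped by 1 library. Cd79a (−0.57) and Ms4a1 (−0.58), B cell surface genes, had overlapping groups and were lower in batch 2 alone, with estimates of 0.10 and 0.02 in batch 1 alone.

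**Figure D4:**
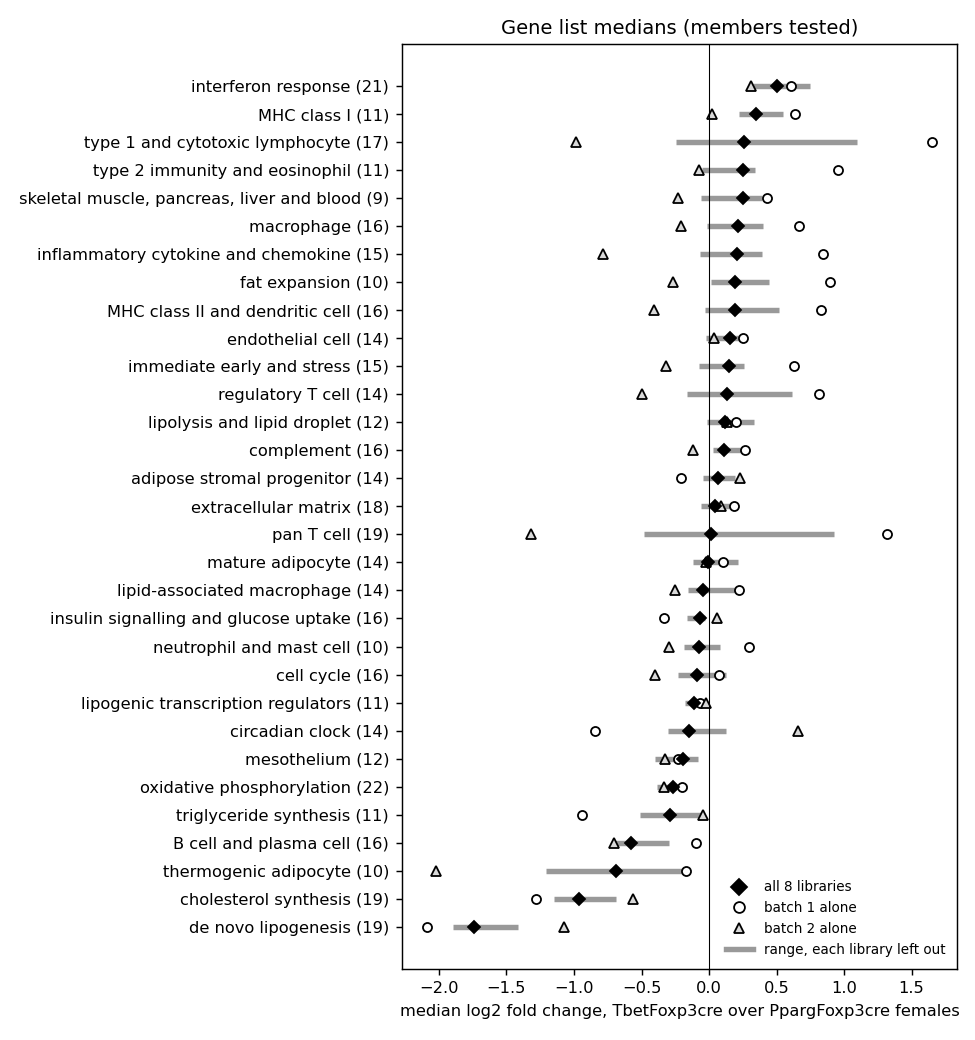
Median log2 fold change (x axis) of the tested members of each gene list, with the number tested in brackets. Black diamonds are all 8 libraries, open circles batch 1 alone, open triangles batch 2 alone, and grey bars the range when each library is left out. De novo lipogenesis and cholesterol synthesis lie below 0 in every setting drawn, interferon response above 0, and T cell lists on opposite sides of 0 in the batches.

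Genes of tissues that a dissection of this fat can include were looked at beside these values. Summed markers of mammary and other epithelium (5 of 14 tested, all 5 negative) were at 37.1 to 74.3 CPM in TbetFoxp3cre and 40.6 to 229 CPM in PpargFoxp3cre females. PpargFoxp3cre replicate 3, the library highest in lipogenesis genes, was highest here too, and replicate 2 was next at 147 CPM. In every other library most of the sum was Trps1, at 33.7 to 45.5 CPM in TbetFoxp3cre and 31.3 to 56.1 CPM in PpargFoxp3cre females. Sums in this paragraph cover every list member in the deposited counts, tested or not. Krt5, the keratin of basal epithelium, was at 0.042, 21, 0 and 0.42 CPM in TbetFoxp3cre females, against 0, 71.6, 120.5 and 0 CPM in PpargFoxp3cre females. Cldn4, a tight junction gene, was at 0.13, 4.21, 0.30 and 0.31 CPM in TbetFoxp3cre females, against 0.071, 16.3, 36.1 and 0 CPM in PpargFoxp3cre females, and the adhesion gene Cdh1 was high in the same 3 libraries. Epithelial RNA was thus measured in TbetFoxp3cre replicate 2 and PpargFoxp3cre replicates 2 and 3. Epcam was at 0.53 to 2.52 CPM in TbetFoxp3cre and 0.90 to 6.9 CPM in PpargFoxp3cre females, Krt14 was at most 2.63 CPM, and the milk protein genes Csn2 and Wap were at 0 in every library. PpargFoxp3cre replicates 1 and 4, with Krt5 at 0, had lipogenesis sums of 22490 and 34370 CPM, above all 4 TbetFoxp3cre libraries. Trps1, Krt5, Cldn4, Cdh1, Csn2, Wap, Pax8 and Hbb-bs are named after their values were seen. The part of epithelial cells in the size of the lipogenesis difference was not tested. Markers of the female reproductive tract and ovary (5 of 15 tested) were at 28.4 to 41 CPM in TbetFoxp3cre and 24.6 to 85.4 CPM in PpargFoxp3cre females, where Pax8 had 2 and 3 counts in all. Muscle, pancreas, liver and blood genes (9 of 15 tested) were at 182 to 1293 CPM in TbetFoxp3cre and 250 to 442 CPM in PpargFoxp3cre females; the high values were TbetFoxp3cre replicates 1 and 3. Of this list, the haemoglobin gene Hbb-bs was at 458, 24.8, 305 and 65.3 CPM in TbetFoxp3cre females, against 144, 53.3, 127 and 85 CPM in PpargFoxp3cre females. The muscle actin gene Acta1 was at 191, 71.3, 122 and 9.92 CPM in TbetFoxp3cre females, against 14.4, 28.5, 16.5 and 29.2 CPM in PpargFoxp3cre females. The immediate early gene Fos was high in the same pair of libraries, at 81.6, 5.17, 103 and 9.19 CPM in TbetFoxp3cre females, against 13.2, 5.67, 22 and 6.65 CPM in PpargFoxp3cre females. Circadian clock genes differed in opposite directions in the batches, with a median of −0.85 in batch 1 alone and 0.66 in batch 2 alone. The clock output gene Dbp, named after its values were seen, was at 49.6, 95.8, 49.8 and 118 CPM in TbetFoxp3cre females, against 198, 29.2, 215 and 36.1 CPM in PpargFoxp3cre females. The labels give no hour of collection, and its part in the lipogenesis difference was not tested. Of all lists, the summed levels of lipogenesis, cholesterol and triglyceride synthesis genes were those without overlap between the genotypes.

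The same contrast in males, on 8 other libraries, gave lipogenic medians near 0. In a fit of the 16 knockout libraries, the de novo lipogenesis list's male median was −0.03, with 0 of 19 at an unadjusted p under 0.05, and that of cholesterol synthesis 0.03, with 0 of 19; over all 17249 genes 1.62% were higher and 3.01% lower in males. Elovl6 was at 17.8, 45.1, 46.7 and 68.3 CPM in TbetFoxp3cre males, against 22.8, 131, 22.7 and 55 CPM in PpargFoxp3cre males (log2 fold change −0.30, SE 0.54). Scd1 was at 15590 to 23860 CPM in TbetFoxp3cre and 11710 to 27870 CPM in PpargFoxp3cre males (0.16, SE 0.29). Scd1 was the 1 of 19 lipogenesis genes for which all TbetFoxp3cre females were below all 8 male libraries. For 4 of the 19, Elovl6, Acly, Acaca and Tkt, all PpargFoxp3cre females were above all 8 males. Female CPM were scaled among the 8 female libraries and male CPM among the 16 knockout libraries, so levels across the sexes are on separate scalings.

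The difference between the sexes was tested as an interaction. For Scd1 the female minus male difference of log2 fold changes was −1.89 (SE 0.41, unadjusted p = 0.00037), and for Elovl6 −3.19 (SE 0.79, unadjusted p = 0.0012). Over all genes edgeR called 0, with 736 at an unadjusted p under 0.05 (2.17% higher, 2.1% lower), and DESeq2 called 4, of which Elovl6 and Net1 had counts in every group. The other two calls, Cldn8 and Ccdc153, named after their values were seen, rest on groups without counts: Cldn8 had 10 counts in TbetFoxp3cre and 259 in PpargFoxp3cre females, and 194 in TbetFoxp3cre and 0 in PpargFoxp3cre males. Ccdc153 had 5 counts in TbetFoxp3cre and 0 in PpargFoxp3cre females, and 2124 in TbetFoxp3cre and 1554 in PpargFoxp3cre males. No fold is given for them. Of the 19 lipogenesis genes 15 had a lower difference at an unadjusted p under 0.05, and of the 19 cholesterol synthesis genes 14 did. Abcg1 (0.81, SE 0.19), Net1 (1.12, SE 0.21), a guanine nucleotide exchange factor gene, Prnd (−1.45, SE 0.34) and Tmem79 (−2.26, SE 0.56) were the other genes with the smallest p for this difference. Net1 was at 181, 290, 137 and 378 CPM in TbetFoxp3cre females, against 123, 158, 130 and 150 CPM in PpargFoxp3cre females; in males it was at 74.5 to 122 CPM in TbetFoxp3cre and 98 to 157 CPM in PpargFoxp3cre libraries.

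Estimates of some immune lists also differed between the sexes. Macrophage genes had a median of −0.59 in males, with 11 of 16 lower at an unadjusted p under 0.05 (all genes: 3.01%). At that threshold 9 of 16 had a higher female minus male difference (all genes: 2.17%). Interferon response genes had a median of −0.26 in males, and 10 of 21 had such a higher difference, Irf1, Gbp4, Gbp5 and Gbp7 among them. B cell genes had a median of −2.05 in males, with all 16 negative and 10 of 16 lower at an unadjusted p under 0.05 (all genes: 3.01%). Their median was negative in females too (−0.58), and 2 of 16 had a higher female minus male difference at that threshold (all genes: 2.17%). Lymph node genes (7 of 9 tested) had a median of −1.71 in males and 0.006 in females. In males 4 of 7 were lower at an unadjusted p under 0.05 (all genes: 3.01%). Of these genes, Cxcl13 was at 1.56 to 7.94 CPM in TbetFoxp3cre and 0.82 to 84.1 CPM in PpargFoxp3cre males. In males Epcam spanned 0.14 to 83.4 CPM in TbetFoxp3cre and 0.34 to 59.5 CPM in PpargFoxp3cre libraries, and Xist was at 22.6 CPM in TbetFoxp3cre replicate 4 and at most 3.13 CPM in the other males. Their part in the differences between the sexes was not tested.

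**Figure D5:**
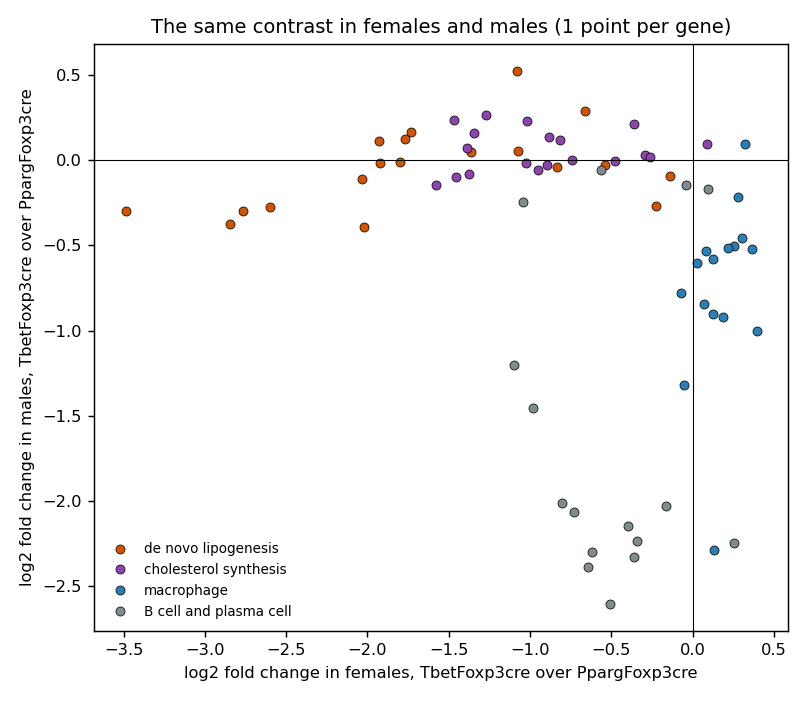
Log2 fold change of TbetFoxp3cre over PpargFoxp3cre in females (x axis) and in males (y axis) from the fit of 16 knockout libraries, 1 point per gene. De novo lipogenesis and cholesterol synthesis genes spread to the left at male values near 0, while macrophage and B cell genes spread downwards.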

How the data were processed

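Whole visceral/perigonadal fat was profiled by bulk RNA-seq (TruSeq RNA libraries), with 4 libraries of each genotype per sex. The authors deposited raw counts per gene for 27179 Entrez genes, and log2 FPKM values. Per the submitters' processing notes, featureCounts and limma were used with GRCm38 and mm10; for the aligner, versions and strand setting, the sources used here give nothing. From the values, the log2 FPKM columns appear quantile-normalised.

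The counts of 8 female libraries were filtered (filterByExpr), leaving 16165 genes, TMM-scaled and fitted with edgeR 4.0.16 (R 4.3.3; quasi-likelihood F test, genotype plus batch, 5 residual degrees of freedom), with Benjamini-Hochberg adjustment and a threshold of 0.05. The common biological coefficient of variation was 0.255. DESeq2 1.42.0 and limma 3.58.1 gave alternatives, and DESeq2 left 627 genes without an adjusted p. Genes without a symbol (1029, at most 0.57% of counts) were kept in the fit and not named. Males entered a fit of 16 libraries for the difference between the sexes. The programs were tested on simulated counts.

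The members and gene lists (36 lists, 518 genes, 461 tested) were chosen with earlier results of these data known. Genes were named by rule: the targeted and sex-linked genes; called genes without overlap, filled up to 10 per direction by the smallest p at a mean log2 CPM of at least 1; up to 4 members by p from each list and up to 8 from the 4 lists with the largest absolute median among those with at least 8 tested members; and up to 6 for the difference between the sexes. Names outside the rule are marked as such. Promoter windows came from RefSeq tables.

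Replicate numbers mark shared batches. Same-numbered libraries deviated together from their group means, with correlations of 0.449, 0.377, 0.257 and 0.341 for numbers 1 to 4. Numbers 3 and 4 correlated better with another number (0.286 and 0.42). With the batch mean removed, the same-number correlations fell to 0.111 for numbers 1 and 3 and 0.0937 for numbers 2 and 4.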

Additional observations from a re-analysis of the deposited data

Results flagged for a closer look

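For each named gene, the highest or lowest library of each genotype was set against the other 3 by Dixon's criterion, and 23 of 182 such groups passed it. Chance alone flags about 1 in 20 groups, and genes of 1 library are not independent.

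TbetFoxp3cre replicate 2 was high for Ppp1r3b (33.41 CPM, others at most 11.7), Ucp1 (3.606 CPM), Gbp7 (208 CPM), Gbp5 (99.99 CPM) and Epcam (2.524 CPM). TbetFoxp3cre replicate 4 was high for Elovl6 (38.23 CPM, others at most 28.89), replicate 3 for Kcnk3 (57.86 CPM) and replicate 1 for Sbk1 (32.95 CPM).

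PpargFoxp3cre replicate 3 stood apart in lipid synthesis genes. It was at 620.5 CPM for Elovl6 (others 184.1 to 251.8), 3978 CPM for Acly, 54.18 CPM for Sqle and 60.98 CPM for Dhcr7. It was also at 540.9 CPM for Insig1, 749.9 CPM for Srebf1 (others 329.5 to 352.5), 922.9 CPM for Agpat2 and 802.5 CPM for Pkm. Xist was lowest there, at 610.1 CPM against 753.3 to 782.7 CPM in the others. PpargFoxp3cre replicate 2 was high for Cidea (72.5 CPM), Ucp1 (120.4 CPM) and Cpt1b (3.26 CPM). PpargFoxp3cre replicate 4 was high for Gbp4 (150.6 CPM, others at most 49.68), Gbp7 (107.9 CPM) and Gbp5 (67.13 CPM).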

How the results depend on the processing

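edgeR called 0 genes, and also 0 with other size factors, with 16 or 24 libraries, without batch or with the replicate block. It called 1 without the filter on low counts (0 higher, 1 lower), 28 in batch 1 alone (17 higher, 11 lower), 7 in batch 2 alone (1 higher, 6 lower) and 0 to 2 when each library was left out, all of these lower. The 2 were Elovl6 and Slc2a5, without PpargFoxp3cre replicate 3. DESeq2 called 121 (40 higher, 81 lower), limma on log2 FPKM 3 (1 higher, 2 lower) and limma voom 0. For every gene that the rule picked by p, the SE of the female contrast was larger in the fit of 16 knockout libraries. It was 1.285 against 0.411 for Slc2a5, 0.438 against 0.146 for Rbp7 and 0.285 against 0.104 for Chst1. The difference between the sexes had 0 calls in edgeR, 0 whenever a library was left out, and 4 in DESeq2, 2 of them with a group at 0 counts. With the replicate block, 830 genes had an unadjusted p under 0.05 against 965 without it, the medians were −1.66 for lipogenesis and −0.90 for cholesterol synthesis, and the block changed no other call.

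De novo lipogenesis members lower at an unadjusted p under 0.05 numbered 14 to 17 of 19 over all settings, and cholesterol synthesis members 13 to 18. For lipogenesis the batch 2 libraries gave a median of −1.07, with −1.90 to −1.41 when each library was left out; for cholesterol synthesis it was −0.56 and −1.15 to −0.69. In batch 1 alone the median was −0.94 for triglyceride synthesis, −0.34 for insulin signalling and −0.10 for B cells. In batch 2 alone it was −2.02 for thermogenic and −0.78 for inflammatory cytokine genes. In batch 1 and batch 2 alone it was 0.81 and −0.50 for regulatory T cells (left out: −0.17 to 0.62), 1.32 and −1.32 for pan T cells (−0.48 to 0.93), and 1.65 and −0.98 for type 1 lymphocytes (−0.25 to 1.10). It was 0.83 and −0.41 for MHC class II (−0.029 to 0.52), and −0.85 and 0.66 for clock genes. For muscle, pancreas, liver and blood genes it was −0.069 under voom, −0.23 in batch 2 alone and −0.06 to 0.39 with each library left out, and for endothelial genes −0.022 to 0.23. The cause of these shifts was not tested.

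Of 91 named genes, Foxp3 changed sign under voom (−0.066). In batch 1 alone Xist (−0.12), Cd79a (0.10) and Ms4a1 (0.023) did. In batch 2 alone Tbx21 (−0.41), Foxp3 (−1.14), Cebpa (−0.01) and Bmp3 (−0.09) did. With each library left out Pparg spanned −0.36 to 0.076, Tbx21 −0.39 to 1.66 and Foxp3 −0.15 to 0.94. Tbx21 and Foxp3 had at most 112 and 64 counts summed over a genotype, which limits both.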

Other observations

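Glycolysis and pyruvate oxidation genes, a list added after values were seen, had 21 of 21 members with negative log2 fold changes in females and a median of −0.61. Of these, 15 were lower and 0 higher at an unadjusted p under 0.05 in edgeR (all genes: 3.54% lower). DESeq2 called 4 lower (all genes: 0.521%), and the median in males was −0.08. Pdhb, a subunit of pyruvate dehydrogenase, which feeds acetyl-CoA into mitochondria, was at 127, 117, 136 and 133 CPM in TbetFoxp3cre females, against 272, 218, 501 and 174 CPM in PpargFoxp3cre females. Pfkl, a phosphofructokinase, was at 94.5 to 116 CPM in TbetFoxp3cre and 150 to 238 CPM in PpargFoxp3cre females. Pkm, the pyruvate kinase, was at 249 to 447 CPM in TbetFoxp3cre and 483 to 803 CPM in PpargFoxp3cre females. None of these 3 genes had overlapping groups.

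Arntl, the gene of the clock factor BMAL1, chosen after its values were seen, was at 25.9, 11.1, 21.6 and 12 CPM in TbetFoxp3cre females, against 10.8, 35.6, 5.96 and 35 CPM in PpargFoxp3cre females. Within each genotype the libraries fell by batch, and the batches were ordered oppositely in the genotypes.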
